A study of Mus musculus with 4 samples.

Results

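Among the cells released from the tibia of a mouse at postnatal day 6 (P6), 71 of 8256 cells kept (0.860%, 95% Clopper-Pearson interval 0.672 to 1.08) carried at least 5 UMIs of Siglech, a marker gene of plasmacytoid dendritic cells (pDCs). UMIs are barcoded tags that count captured transcripts without PCR copies. The cells were chosen by the Siglech count itself and by upper limits on genes of neutrophils (Ngp under 100 UMIs per 10000 UMIs of the cell), macrophages (C1qa, C1qb and C1qc together under 10 per 10000), osteoblasts (Col1a1 under 50 per 10000) and chondrocytes (Col2a1 under 50 per 10000). A cell was kept with at least 1600 genes and at most 10% mitochondrial UMIs. The levels of these selecting genes are a description of how the cells were picked and are not a result. Intervals in the text cover counting error only. The share was 0.288% with at most 5% mitochondrial UMIs and 0.351% with at least 10 Siglech UMIs. All values come from 1 library of 1 animal, so no difference between classes of cells could be tested, and cells were not treated as replicates.

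The library held cells of the proximal and distal tibia, pooled from 2 tibiae of 1 male mouse of the genotype Col10a1Cre;Rosa26-Tdtomato;Irx3 +/Δ;Irx5 +/-, which the labels call an Irx3/5 heterozygous control. Cre was driven by Col10a1, a gene of hypertrophic chondrocytes (HCs), so that HCs and their descendants carry the tdTomato reporter, and no treatment was given. The cells were digested from the bone without sorting and captured on the 10x Genomics platform. The design text gives 1 sample, so its 4 entries in the labels, which the count matrix does not tell apart, were taken as sequencing entries of 1 library. Marrow cells came along with the chondro-osteogenic cells that the study set out to follow, and the pDC-like cells were among them.

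pDCs are dendritic cells of the bone marrow, blood and lymphoid organs that are known for releasing large amounts of type I interferon when viral RNA or DNA reaches the Toll-like receptors of their endosomes. They form in the marrow from Flt3-bearing progenitors of both the lymphoid and the myeloid branch, under the E protein Tcf4 with Irf8, Spib, Bcl11a, Zeb2 and Runx2, and are held apart from conventional dendritic cells, which specialise in presenting antigen. Siglech encodes a sialic acid-binding lectin of mouse pDCs that signals through the adaptor Tyrobp (DAP12).

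Siglech was rare in the tibia. A Siglech UMI was found in 125 kept cells, and 74 of these had 5 or more, of which the limits on Ngp, C1q and Col2a1 removed 1 each. The pDC-like cells held 688 of the 857 Siglech UMIs of the whole file (80.3%). Per cell they carried 5 UMIs at the lowest, 8 at the median and 25 at the highest, or 2.49, 10.2 and 34.3 UMIs per 10000. Within the other limits, 4324 cells had no Siglech UMI and 31 had 1 to 4. Just outside the threshold, 6 cells with 4 Siglech UMIs had Ccr9 UMIs in 5, Ly6d UMIs in 4 and Cox6a2 UMIs in 6 of them. Just inside it, 10 cells with 5 Siglech UMIs had Ccr9 UMIs in 8, Ly6d UMIs in 5 and Cox6a2 UMIs in 6. The threshold thus ran through a continuous range of Siglech counts, as the plot of Siglech UMIs per cell shows.

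**Figure D1:**
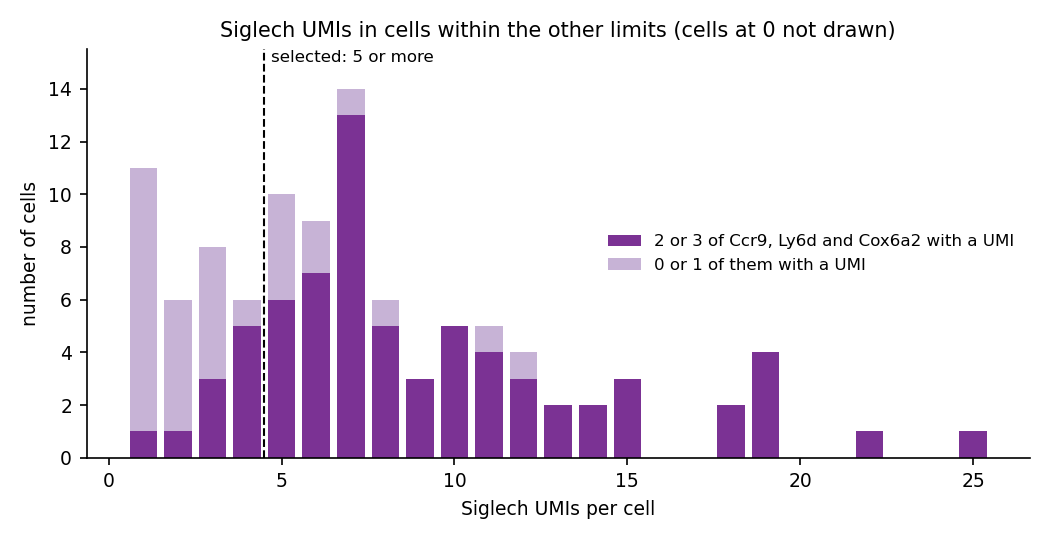
Number of cells (y axis) by Siglech UMIs per cell (x axis) among cells within the limits on Ngp, C1q, Col1a1 and Col2a1; the 4324 cells without a Siglech UMI are not drawn. Dark bars are cells with a UMI in at least 2 of Ccr9, Ly6d and Cox6a2, light bars the rest, and the dashed line marks the limit of 5 UMIs, on either side of which dark bars prevail from 4 UMIs upward.

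The pDC-like cells were shallow. Their UMIs per cell ran from 3919 through a median of 8227 to 28723, and their genes per cell from 1685 through 2824 to 5380. The median of all kept cells was 13957.5 UMIs. They were set beside 2 other marrow classes, chosen within the same limits and without any Siglech UMI. These were 720 B lineage cells (at least 5 Cd79a UMIs, median 9716.5 UMIs) and 236 monocytes (at least 5 Ly6c2 and 2 Ccr2 UMIs and fewer than 2 Cd79a UMIs, median 13096.5 UMIs). Siglech, Cd79a, Ly6c2 and Ccr2 therefore differ by construction. The level of a gene in a class is given as CPM, its summed UMIs scaled to a class total of 1000000. Log2 ratios were taken with 10 CPM added to each class, which draws the ratios of low genes toward 0, and a gene counted as higher or lower from a 2-fold ratio. Across all 8473 genes compared with B lineage cells, 8.76% were higher and 5.56% lower, with a median of -0.02. Across 8279 genes compared with monocytes, 9.75% were higher and 7.54% lower, with a median of 0.18. The counts of each gene list in the text are to be read beside these shares.

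The selection had not used Ccr9, Ly6d and Cox6a2. These 3 markers were named with earlier results of these data known, so they describe the cells and do not test the label. Of the 71 cells, 43 had a UMI of Ccr9, Ly6d and Cox6a2 together, 18 of 2 of them, 8 of 1 and 2 of none, so that 61 (85.9%, 75.6 to 93.0) carried at least 2. The same was seen in 18 of 720 B lineage cells (2.5%) and in 0 of 236 monocytes, which allows a share of up to 1.55%. Bst2 had a UMI in 71 of 71 cells against 21.8% of B lineage cells and 50.4% of monocytes. Tcf4 and Unc93b1 also had one in 71 of 71, but so did 85.1% and 75% of B lineage cells and 39.4% and 94.5% of monocytes, which were deeper. The 10 cells with 0 or 1 of the 3 markers included none of the cells that a doublet caller (Scrublet) marked, and 1 pDC-like cell in all was marked.

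Ccr9, the receptor for the chemokine CCL25 that guides cells to gut and thymus, stood at 708 CPM (95% Poisson interval 647 to 773) in the pDC-like cells, 0.566 CPM in B lineage cells and 2.54 CPM in monocytes. Single pDC-like cells ranged from 0 through a median of 7.23 to 35.9 Ccr9 UMIs per 10000, and 54 of 71 lay above the highest B lineage cell or monocyte. Ly6d, a GPI-anchored surface protein also known from B cell-committed lymphoid progenitors, reached 1838 CPM (1739 to 1940) against 98.8 and 0.564 CPM. Its per-cell values spread from 0 through 14.3 to 102 per 10000, the B lineage cells reached 25.1 per 10000, and 24 of the 71 cells lay above them. Ly6d thus overlapped between the pDC-like and the B lineage cells, 31.7% of which had a Ly6d UMI, while 1 of 236 monocytes had one.

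Cox6a2 encodes a subunit of cytochrome c oxidase that is otherwise known from heart and skeletal muscle. It stood at 508 CPM (457 to 563) in the pDC-like cells, 5.43 CPM in B lineage cells and 0.282 CPM in monocytes, and 37 of 71 cells lay above every B lineage cell and monocyte. The other subunits of the enzyme did not share this pattern. Of 16 listed subunit genes, 1 was higher than in B lineage cells and 0 were lower, and that 1 was Cox6a2. Its ubiquitous counterpart Cox6a1 was at 264, 266 and 301 CPM in pDC-like cells, B lineage cells and monocytes. Cox7a1 and Cox8b, the other muscle subunits on the list, had no UMI in the pDC-like cells.

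The 4 marker genes lie at separate loci of the mouse genome (GRCm38, GENCODE M21). Siglech (ENSMUSG00000051504) spans chr7:55768178-55778925 on the plus strand with up to 7 exons, and Cox6a2 (ENSMUSG00000030785) spans chr7:128205435-128206387 on the minus strand with up to 3. Ccr9 (ENSMUSG00000029530) is at chr9:123678439-123784330 on the plus strand, and Ly6d (ENSMUSG00000034634) at chr15:74762056-74763620 on the minus strand. Bst2 (ENSMUSG00000046718) is at chr8:71534255-71537456 on the minus strand. The 250 bases before the RefSeq start (build GRCm38.p6) are printed for Siglech, Ccr9 and Bst2, the genes among these 5 with a RefSeq window, since they were high in the same cells and the E protein Tcf4 is known to bind E-boxes. Capitals mark matches on either strand to 6 motifs. The E-box was searched as CAGGTG, which E proteins are known to favour, as CAGCTG in its palindromic form, and as CACGTG in the form known from other factors. The Runx core was searched as TGTGGT and the core of PU.1 and SpiB as GAGGAA. The interferon response element was searched as the tetramer GAAA followed, after any 2 bases, by the same tetramer again.
Siglech, chr7:55767934-55768183, plus strand: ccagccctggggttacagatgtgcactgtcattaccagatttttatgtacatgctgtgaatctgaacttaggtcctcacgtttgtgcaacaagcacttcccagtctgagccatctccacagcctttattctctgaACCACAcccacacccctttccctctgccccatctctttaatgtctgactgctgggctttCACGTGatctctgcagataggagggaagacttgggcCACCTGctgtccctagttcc
Ccr9, chr9:123766961-123767210, plus strand: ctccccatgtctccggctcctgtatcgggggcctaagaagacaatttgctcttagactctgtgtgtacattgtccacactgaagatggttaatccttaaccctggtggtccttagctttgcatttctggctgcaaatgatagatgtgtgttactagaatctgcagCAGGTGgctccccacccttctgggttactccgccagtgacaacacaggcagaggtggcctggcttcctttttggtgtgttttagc
Bst2, chr8:71537473-71537722, minus strand: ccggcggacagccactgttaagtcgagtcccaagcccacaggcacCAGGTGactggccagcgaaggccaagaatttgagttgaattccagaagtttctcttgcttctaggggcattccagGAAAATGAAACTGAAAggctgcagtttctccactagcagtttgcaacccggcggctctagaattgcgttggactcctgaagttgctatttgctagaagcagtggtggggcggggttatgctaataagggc

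The Siglech window held CACCTG (the reverse of CAGGTG) 20 bases, CACGTG 56 bases and ACCACA (the reverse of the Runx core) 115 bases before the start. The Ccr9 window held CAGGTG 85 bases before the start, and the Bst2 window held CAGGTG at 205 bases and a pair of overlapping interferon response element matches at 130 and 124 bases. None of the 6 motifs was found in the windows of Spib, Flt3 and Bcl2l11 (both starts) or of the upstream start of Irf8, genes that were also high in these cells, and the other Irf8 start had CAGGTG at 205 bases. Such matches are common. Of 32851 RefSeq windows of the same length, CAGGTG was found in 17.2%, CAGCTG in 13%, CACGTG in 6.02%, the Runx core in 14%, GAGGAA in 23.3% and the interferon response element in 2.98%. A match is a description of the letters and not a site of binding.

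Bst2, the antiviral protein tetherin and the antigen of the pDC antibody PDCA-1, was at 1212 CPM (1132 to 1296) in the pDC-like cells, 26.1 CPM in B lineage cells and 72.5 CPM in monocytes. It ranged from 0.731 through 15.2 to 37.9 UMIs per 10000, and 50 of 71 cells lay above every cell of the other classes. Further genes known from pDCs followed. Of 28 such genes listed beside the 4 markers, 20 were higher and 1 lower than in B lineage cells, with a median log2 ratio of 1.97 over the whole list, and 19 were higher and 1 lower than in monocytes, with a median of 1.38.

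The largest ratio of that list against monocytes was that of Atp1b1, a subunit of the sodium-potassium pump, at 549 CPM against 2.82, with 280 CPM in B lineage cells. Pacsin1, an endocytic adaptor, was at 85.1 CPM against 0.792 and 0 CPM. Sla2, which dampens receptor signalling, was at 152 CPM against 1.58 and 0 CPM, and the inhibitory collagen receptor Lair1 was at 150.4 CPM against 1.13 and 8.46 CPM. Plac8 had the most UMIs of the list, with 2848, 735 and 1787 CPM in pDC-like cells, B lineage cells and monocytes. The exceptions were Dntt, the template-independent DNA polymerase of lymphoid progenitors, which was lower than in B lineage cells (9.93 against 65.5 CPM), and Ly6c2, by which the monocytes had been chosen. Klk1b27 had no UMI, and Cd4 and Cd8a had a UMI in 5 and 4 of the 71 cells.

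**Figure D2:**
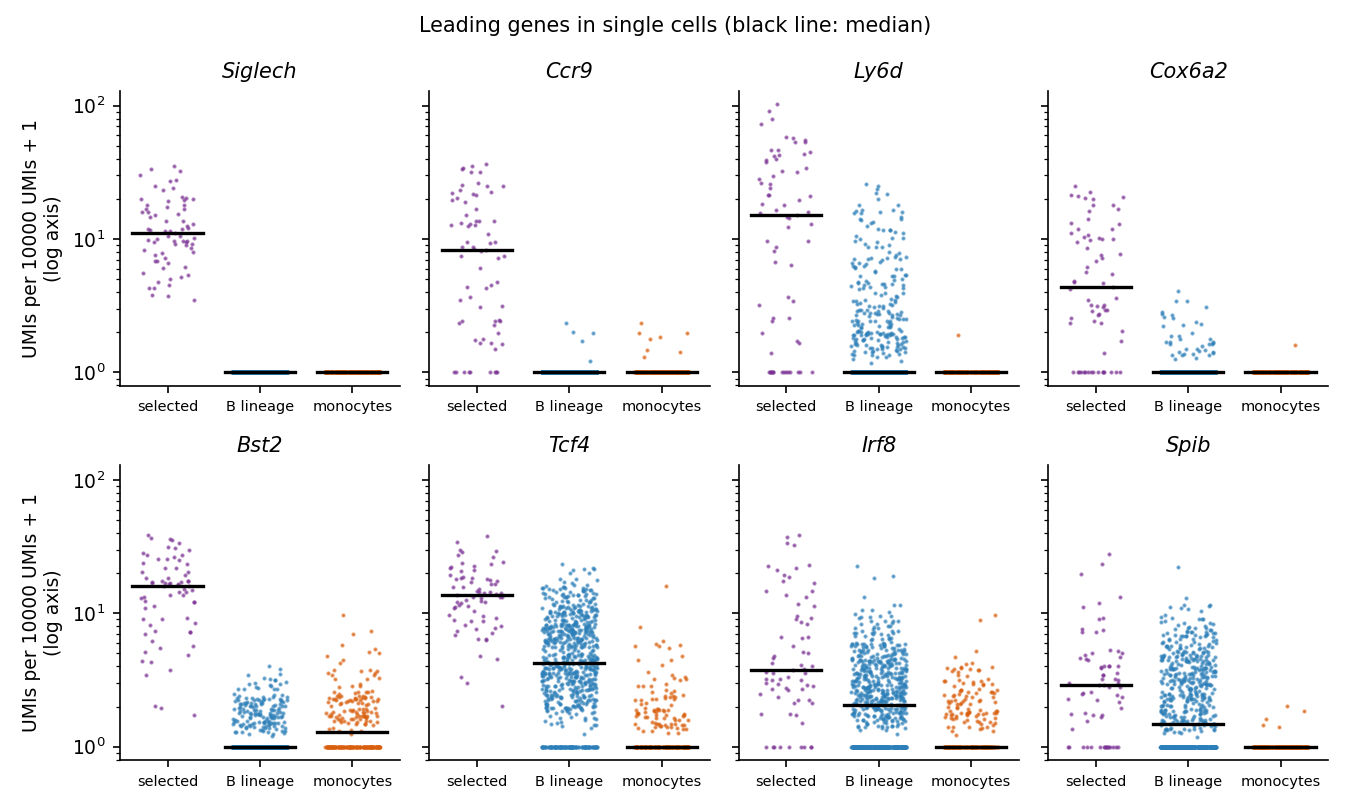
UMIs of 8 genes per 10000 UMIs of a cell, with 1 added, on a log axis, in the 71 pDC-like ("selected") cells, 720 B lineage cells and 236 monocytes; each point is a cell, points at 1 had no UMI, and the black line is the median. Ccr9, Cox6a2 and Bst2 separate most pDC-like cells from both classes, whereas Ly6d, Tcf4, Irf8 and Spib overlap with the B lineage cells.

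Of 14 listed transcription factors of pDC development, 9 were higher and 1 lower than in B lineage cells, with a median log2 ratio of 1.19 (8.76% and 5.56% of all genes), and 8 were higher and 0 lower than in monocytes, with a median of 1.91 (9.75% and 7.54% of all genes). Tcf4, the E protein that defines the lineage, was at 1226 CPM (1146 to 1311) against 417 CPM in B lineage cells and 83.5 CPM in monocytes, and ran from 1.04 through 12.6 to 37.3 UMIs per 10000 in single cells. Only 9 of 71 cells lay above the highest cell of the other classes, so the ranges overlapped. Irf8, which dendritic cell progenitors need, was at 651 CPM (593 to 714) against 152 and 78.4 CPM. Its level was uneven, from 0 through a median of 2.79 to 37.9 UMIs per 10000, with a UMI in 62 of 71 cells. Only 6 cells lay above every B lineage cell and monocyte. Spib, an Ets factor shared by pDCs and B cells, was at 254 CPM (218 to 294) against 106 and 1.69 CPM. It had a UMI in 77.5% of the pDC-like cells, 53.8% of the B lineage cells and 2.12% of the monocytes at median depths of 8227, 9716.5 and 13096.5 UMIs. After thinning of each cell to 5000 UMIs the shares were 56.5%, 36.1% and 0.858%. The Spib ratio to B lineage cells fell under 2-fold with 50 CPM added or at most 5% mitochondrial UMIs.

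Runx2, best known as the master regulator of osteoblasts and also described in pDCs, had the largest ratio of the factors against B lineage cells, at 203 CPM (171 to 239) against 6.79 CPM, with 33.0 CPM in monocytes. It had a UMI in 48 of 71 pDC-like cells, 6.39% of B lineage cells and 32.2% of monocytes. The osteoblast genes Bglap and Ibsp were at 15.6 and 14.2 CPM in the pDC-like cells, at 16.0 and 17.4 CPM in the B lineage cells and at 8.74 and 173 CPM in the monocytes. Mef2c, an activator shared by lymphoid and myeloid cells, was at 905, 391 and 204 CPM in pDC-like cells, B lineage cells and monocytes. Bcl11a, a transcriptional repressor found in lymphoid progenitors, was at 275, 96.1 and 13.5 CPM. Zeb2 was higher than in B lineage cells and close to the monocytes, at 728, 237 and 832 CPM. Ets1, which B cells use, was the factor below the B lineage cells, at 72.4 against 210.4 CPM.

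Factors of conventional dendritic cells were mixed. Of 8 listed, 2 were higher and 1 lower than in B lineage cells, and 2 were higher and 3 lower than in monocytes, with medians of 0.27 and -0.03. Klf4, which had the most UMIs of the list, was at 76.6 CPM against 40.1 CPM in B lineage cells and 185 CPM in monocytes, and Irf4 at 55.3 CPM against 180 and 2.26 CPM. Batf was higher than in B lineage cells, at 25.5 against 6.57 CPM. Id2, an inhibitor of E proteins, was at 39.7 CPM against 155 CPM in monocytes, Zbtb46, which marks the conventional lineage, had a UMI in 3 of 71 cells, and Batf3 in 2. Among 12 markers of conventional dendritic cells, Xcr1, Itgae and Clec4a4 had no UMI and Clec9a had a UMI in 4 cells. Their summed level was 884 CPM in the pDC-like cells, with the most UMIs from Sirpa at 278 CPM. It was 1032 CPM in B lineage cells, 292 CPM in monocytes and 658 CPM in 16 conventional dendritic-like cells. The sum was highest in the B lineage cells, so it is not a measure of the conventional lineage. Flt3, Sirpa, Cadm1, Itgax and Cd209a of that list were higher and Cd24a lower than in B lineage cells, and pDCs are known to carry several of them.

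The genes for sensing nucleic acids were present unevenly. Unc93b1, the chaperone that brings Toll-like receptors to endosomes, had a UMI in 71 of 71 cells and stood at 400.1 CPM (355 to 450) against 137 and 272 CPM. The lysosomal protease Ctsl, which cuts these receptors into their active form, was at 610.1 CPM against 41.7 and 242 CPM. The endolysosomal exonuclease Pld4 was at 325 CPM against 23.8 and 255 CPM, and the endolysosomal transporter Slc15a4 at 83.7 CPM against 33.2 and 22.3 CPM. The receptors themselves were near the limit of detection. Tlr7, which binds single-stranded RNA, had 1 UMI in each of 13 cells (18.4 CPM, 9.82 to 31.5) against 0.340 and 11.8 CPM, and Tlr9, the receptor for CpG DNA, had a UMI in 1 cell. The Tlr7 ratio to B lineage cells fell under 2-fold with 50 CPM added. Of 15 genes on the list, 5 were higher and 0 lower than in B lineage cells, and 2 were higher and 0 lower than in monocytes, with medians of 0.89 and 0.27.

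Other innate receptors were sparse. Of 13 listed, Tlr3, Tlr4, Tlr5, Tlr6, Tlr8 and Tlr13 had no UMI in the 704749 UMIs of the pDC-like cells, which allows up to 4.26 CPM each. Tlr2, the receptor for bacterial lipoproteins, was at 31.2 CPM against 581 CPM in monocytes. Tmem173, which encodes the cytosolic DNA pathway protein STING, was the exception, at 62.4 CPM against 19 CPM in B lineage cells and 16.4 CPM in monocytes. It was the 1 gene of the 13 that was higher than in B lineage cells.

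Interferon genes were almost undetected at this depth. Of 20 listed interferon genes, 18 had no UMI, Ifnab had 1, and Ifnb1, the gene of interferon beta, had 5 UMIs, all in the same cell. Reads of the Ifna genes could be lost between near-identical copies, so their 0 is uncertain. The cell with Ifnb1 had 7325 UMIs in all, 7 of Siglech, a UMI of each of the other 3 markers, and was not marked as a doublet. It also held 15 UMIs of Ccl3, 5 of Ccl4 and 4 of Cxcl10, genes of chemokines, and 7 of Cd83, an activation marker. Its Ccl3, Ccl4 and Cd83 counts were not the highest, since 6 other pDC-like cells without Ifnb1 had more Ccl4 (up to 39 UMIs), 1 had more Ccl3 (21 UMIs) and 3 had more Cd83 (up to 15 UMIs). Across all kept cells, Ifnb1 gave 18 UMIs in 6 cells.

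The receptor of type I interferon was well covered in the pDC-like cells. Ifnar1 was at 210.0 CPM (178 to 247) against 43.0 and 75.3 CPM, and Ifnar2 at 285 CPM (247 to 327) against 33.4 and 130 CPM. Stat2, which carries the signal of that receptor, was at 56.8 CPM against 8.94 and 7.33 CPM. A chosen set of 18 genes that interferon induces (such as Isg15, Ifit1, Mx1, Oas2, Rsad2 and Usp18) had 26 UMIs in 19 cells. The set leaves out Bst2, Ifi27l2a and Stat2, so its low sum depends in part on the choice of genes. The set summed to 36.9 CPM against 29.8 CPM in B lineage cells and 122 CPM in monocytes. The cell with Ifnb1 had no UMI of these 18 genes. Its 4 UMIs of Cxcl10 were of a gene outside the 18. Irf7, the interferon regulatory factor that amplifies the response, had a UMI in 4 of 71 cells (5.63%) against 2.92% of B lineage cells and 19.1% of monocytes. Of 23 interferon-stimulated genes in the file, 3 were higher and 0 lower than in B lineage cells, namely Bst2, Ifi27l2a and Stat2. Beside monocytes, 2 were higher and 2 lower. The 23 genes summed to 1606 CPM against 144 CPM in B lineage cells and 481 CPM in monocytes, with the most UMIs from Bst2. Ifi27l2a was at 236 CPM against 44.2 CPM in B lineage cells and 241 CPM in monocytes.

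**Figure D3:**
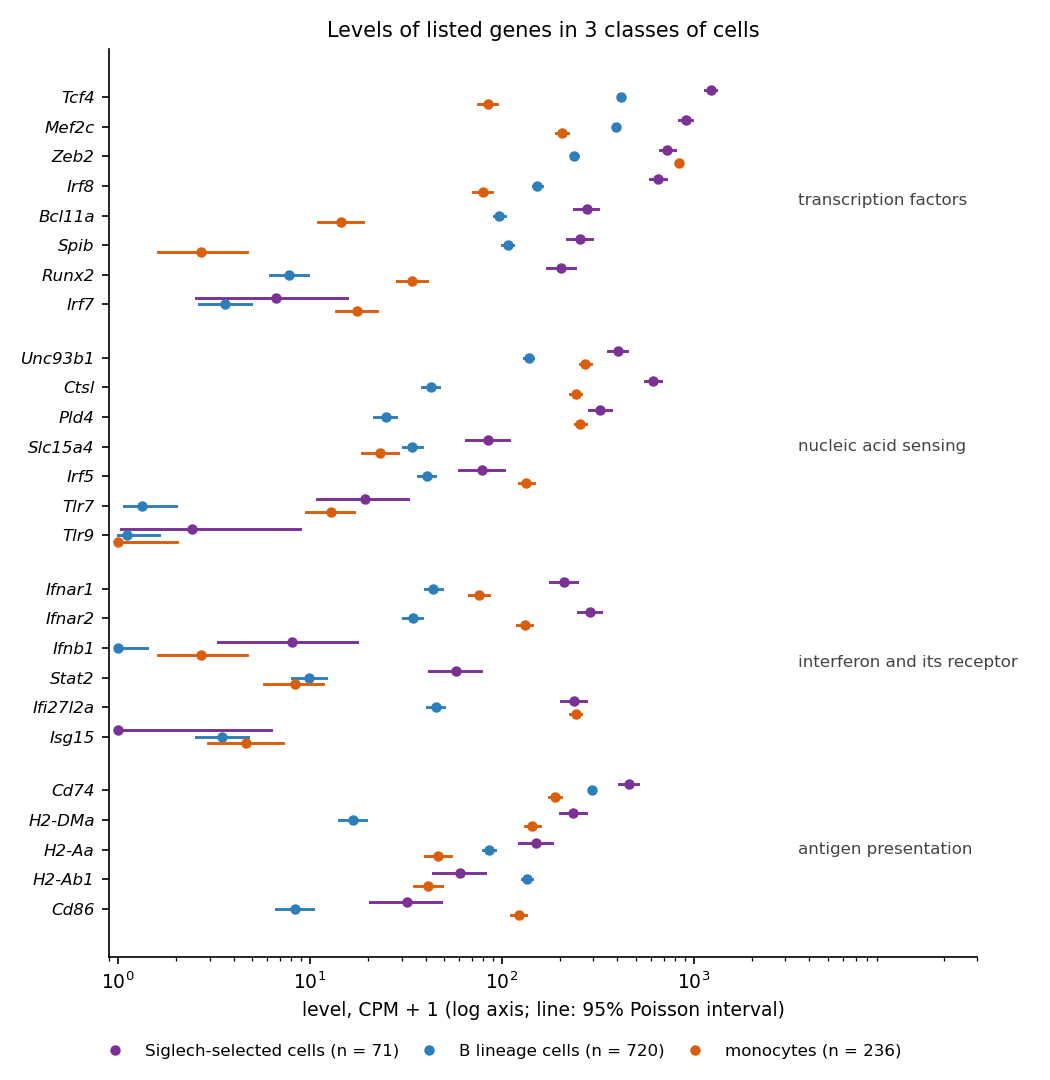
Level of 26 listed genes, as CPM with 1 added on a log axis, in pDC-like cells (purple), B lineage cells (blue) and monocytes (orange); points are the summed level and lines the 95% Poisson interval. Tcf4, Irf8, Ctsl and Ifnar1 lie to the right of both classes in the pDC-like cells, while Irf7, Tlr9 and Isg15 lie under 10 CPM in those cells.

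Antigen presentation genes of class II were uneven, and 11 of them summed to 1362 CPM in the pDC-like cells against 706 CPM in B lineage cells and 918 CPM in monocytes. H2-Aa had a UMI in 22 of 71 pDC-like cells and stood at 149 CPM (122 to 180) against 84.3 CPM in B lineage cells and 45.4 CPM in monocytes. H2-Ab1 was at 59.6 CPM against 134 and 40.3 CPM, and H2-Eb1 at 41.1 CPM against 67.5 and 49.1 CPM. The 3 genes had no UMI in 43 cells, and 7 cells with at least 10 UMIs held 107 of their 176 UMIs. For scale, the 16 conventional dendritic-like cells, which had been chosen by these class II genes and by markers of that lineage, had 5574 CPM of H2-Aa and 9891 CPM of Cd74. Cd74, the invariant chain, was at 457 CPM in the pDC-like cells. No ratio was taken to so few cells.

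The peptide-loading gene H2-DMa was at 234 CPM against 15.7 CPM in B lineage cells and 143 CPM in monocytes. Of the 11 class II pathway genes in the file, 3 (H2-DMa, H2-DMb1 and Ctss) were higher and 2 (H2-Ab1 and H2-Ob) lower than in B lineage cells, and 3 (H2-Aa, H2-Oa and Cd74) were higher and 0 lower than in monocytes. Of 10 class I pathway genes, 1 (Tapbp) was higher than in B lineage cells and 0 differed from monocytes by 2-fold. Costimulatory genes were sparse. Of 10 listed, 2 were higher and 1 lower than in B lineage cells, and 4 were lower than in monocytes. Cd86 was at 31.2 CPM against 7.36 and 121 CPM, Cd40 had a UMI in 2 cells, and Cd274 had no UMI.

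Receptors for homing marked the cells further. Selplg, the selectin ligand PSGL-1, was at 839 CPM against 60.7 and 104 CPM, and had a UMI in 70 of 71 cells. Cxcr4, which retains cells in the marrow, was at 353 CPM against 284 and 76.4 CPM. Ccr7, which leads dendritic cells to lymph nodes, had a UMI in 7 cells, and S1pr1, which serves exit from tissue, in 4. Of 14 listed genes, 8 were higher and 2 lower than in B lineage cells, and 5 were higher and 1 lower than in monocytes, with medians of 1.4 and 0.67. The gene lower than in monocytes was Ccr2, by which that class had been chosen.

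Among cytokine receptors, Flt3, whose ligand drives dendritic cell development, was at 223 CPM (189 to 260) against 8.94 and 9.03 CPM, with a UMI in 62 of 71 cells. Csf2rb2, a mouse beta chain for IL-3, was at 169 CPM against 3.28 and 45.4 CPM. Il7r, the receptor of the lymphoid cytokine IL-7, was at 260 CPM (223 to 300.1) against 183 and 22.6 CPM. Csf1r and Csf2ra, the myeloid receptors, were at 34.1 and 18.4 CPM against 176 and 193 CPM in monocytes. Of 14 listed, 8 were higher and 0 lower than in B lineage cells, and 4 were higher and 3 lower than in monocytes.

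Siglech lacks a signalling tail of its own, and its partner Tyrobp was at 1789 CPM (1692 to 1891), with 75.4 CPM in B lineage cells and 1690 CPM in monocytes. Other Siglec genes were low, with Siglec1 and Siglecf at 0, and Siglecg in 14 cells. Blnk, the linker that relays the signal in pDCs as in B cells, was at 312 CPM in the pDC-like cells and 303 CPM in B lineage cells and had a UMI in 9 of 236 monocytes. Of 17 genes for Siglec proteins and adaptors, 5 were higher and 1 lower than in B lineage cells, and 4 were higher and 1 lower than in monocytes, with Siglech among the higher ones of both by construction. The cells thus combined a myeloid adaptor with a lymphoid linker.

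Few genes of the secretory apparatus reached a 2-fold ratio. Of 27 genes of the endoplasmic reticulum, 2 were higher than in B lineage cells and 1 than in monocytes (8.76% and 9.75% of all genes), and 0 were lower. Their medians were 0.62 and 0.32, against -0.02 and 0.18 over all genes. The 27 summed to 8087 CPM in the pDC-like cells, 5184 CPM in B lineage cells and 6650 CPM in monocytes. Xbp1, the secretory transcription factor, was at 170.3 CPM against 35.7 and 89.1 CPM, Sec61a1 of the translocon at 142 CPM against 64.3 and 91.9 CPM, and Herpud1 at 724 CPM against 498 and 253 CPM. All 27 genes had a UMI in the pDC-like cells.

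Genes of cell death varied more within their family. Bcl2l11, which encodes the death-promoting BIM, was at 877 CPM (809 to 949) against 122 CPM in B lineage cells and 391 CPM in monocytes, and had a UMI in 67 of 71 cells. Pmaip1, which encodes NOXA, was at 129 CPM against 6.79 and 96.5 CPM. These were the 2 of 10 Bcl2 family genes that were higher than in B lineage cells, and 0 were lower. The survival gene Mcl1 was at 348 CPM against 242 and 895 CPM. Bcl2a1b and Bcl2a1d were lower than in monocytes, at 28.4 and 12.8 CPM against 321 and 124 CPM, and share reads as near-identical copies.

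Ighm, the constant region of immunoglobulin M, had a UMI in 71 of 71 pDC-like cells, with 1 at the lowest, 7 at the median and 51 at the highest. Its level was 834 CPM (768 to 905), below the 2062 CPM of B lineage cells and above the 48.8 CPM of monocytes, 36.4% of which had a UMI. The genes that define B cells were below B lineage levels. Of 20 lymphoid genes, 15 were lower than in B lineage cells and 1 (Ptprc) was higher, with a median log2 ratio of -2.99. Set against monocytes, 10 of the 20 were higher and 0 lower, with a median of 1.08. Vpreb1, Igll1 and Vpreb3, of the surrogate light chain and its kin, were at 8.51, 15.6 and 48.2 CPM against 812, 584 and 1366 CPM. Pax5, the B cell commitment factor, had a UMI in 2 cells, Rag1 and Dntt in 2 cells each, and Jchain in none. Cd79a, by which the B lineage cells had been chosen, had a UMI in 6 cells.

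The few B cell UMIs were concentrated. Of the 77 UMIs of Cd79a, Pax5, Vpreb1, Vpreb3 and Igll1, 72 were in 4 cells, and 62 cells had none. In those 62 cells Ighm still ran from 1 through 6 to 19 UMIs per cell, at 772 CPM. Of the 9 B cell markers listed, 9 were lower than in B lineage cells, with a median of -4.28. Beside monocytes, 7 were higher and 0 lower, with a median of 1.90. Their sum was 1164 CPM in the pDC-like cells, 9139 CPM in B lineage cells and 83.2 CPM in monocytes, and Ighm had the most UMIs. Mzb1, a B and plasma cell chaperone also known from pDCs, was at 285, 586 and 1.69 CPM in the same order.

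Markers of other cells were measured in the same way, and their part in the levels above was not tested unless stated. Haemoglobin gene Hbb-bs was at 5862 CPM in the pDC-like cells, 7005 CPM in B lineage cells and 2191 CPM in monocytes. The 10 erythroid genes summed to 11099 CPM, Car1 was at 0, and 3 cells held 94.5% of the UMIs, with haemoglobin at 636, 1278 and 2288 UMIs per 10000 against a median of 6.22. Neutrophil genes summed to 1808 CPM against 1632 and 6212 CPM, with the most UMIs from S100a9, and 3 cells with 283, 386 and 440 UMIs held 87.0% of them. The granule genes Ltf and Elane had a UMI in 1 cell each. Endothelial genes summed to 410.1 CPM against 357 and 525 CPM, with the most UMIs from Pecam1 and none of Stab2, and 2 cells held 107 and 56 UMIs, the former being the cell marked as a doublet.

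Monocyte genes summed to 915 CPM in the pDC-like cells, 591 CPM in B lineage cells and 13242 CPM in monocytes. Ctss had the most UMIs, F13a1 was at 0, and Lyz2 was at 29.8 CPM against 7397 CPM in monocytes. Macrophage genes summed to 66.7 CPM, with the most UMIs from Apoe, and C1qa, C1qb, C1qc, Adgre1 and Cd5l were at 0. T and NK cell genes summed to 4.26 CPM, with Cd3e, Cd3g, Trbc1, Ncr1, Gzma, Klrb1c and Il2rb at 0. Basophil and mast cell genes also summed to 4.26 CPM, all from Gata2, with Mcpt8 and Cpa3 among the 7 at 0. Progenitor genes summed to 430 CPM, mostly from Flt3, with Kit in 15 cells and Cd34 in 10.

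Cartilage and bone genes were low in all 3 classes. The 10 genes summed to 1623 CPM in the pDC-like cells, 1766 CPM in B lineage cells and 2181 CPM in monocytes, and Col2a1, the cartilage collagen, had a UMI in 70 of 71, 99.3% and 99.2% of the cells at 515, 501 and 433 CPM. The limits on Col1a1 and Col2a1 apply to all 3 classes. No pDC-like cell passed the 14 UMIs of WPRE, a sequence of the reporter transcript, above which the study counts a cell as HC-derived. This allows a share of up to 5.06%. WPRE had a UMI in 21 cells, 5 at the most, tdTomato had none, and 31.8% of the monocytes and 17.5% of the B lineage cells had a WPRE UMI. Of the genes of the alleles, Irx3 had a UMI in 3 cells, Irx5 in none and Col10a1 in 18, at 31.2 CPM against 140 CPM in B lineage cells.

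**Figure D4:**
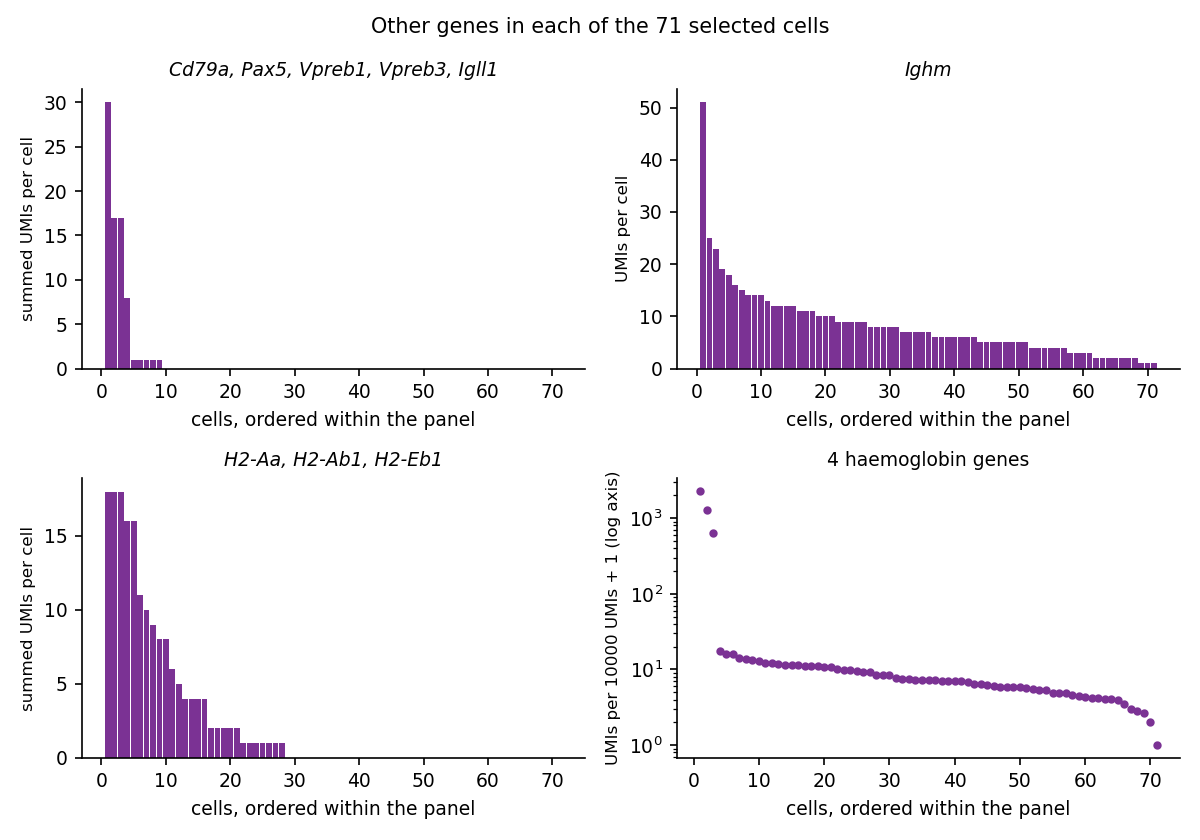
UMIs of 5 B cell-defining genes summed, of Ighm, and of 3 class II genes summed, and haemoglobin UMIs per 10000 with 1 added on a log axis, in each of the 71 pDC-like cells; within each panel cells are ordered by the value drawn. B cell-defining genes are held by a few cells and haemoglobin exceeds 500 per 10000 in 3, whereas Ighm is found in 71 of 71.

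Genes of dividing cells were found in a share of the pDC-like cells. At least 2 UMIs of Mki67 and Top2a together were found in 33 of 71 (46.5%, 34.5 to 58.7), against 78.3% of B lineage cells and 60.6% of monocytes. These cells are called cycling as a name for that count, which deeper cells reach more easily, and division itself was not measured. Mki67 stood at 236 CPM against 578 CPM in B lineage cells and 204 CPM in monocytes. After thinning to 5000 UMIs, 37.1% of the pDC-like cells, 78.6% of B lineage cells and 42.5% of monocytes had an Mki67 UMI, so no order between pDC-like cells and monocytes was read. Of 16 S phase genes, 9 were lower and 0 higher than in B lineage cells, with a median of -1.06, and 1 was higher and 0 lower than in monocytes. Of 16 G2 and M phase genes, 5 were lower and 0 higher than in B lineage cells, with a median of -0.78, and again 1 was higher than in monocytes. Rrm2, a subunit of ribonucleotide reductase, was at 65.3, 384 and 123 CPM.

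Within the pDC-like cells, marker levels differed between the 33 cycling and the 38 other cells, which also differed in depth, with medians of 12872 and 6476 UMIs. Ccr9 was at 461 CPM (400 to 529) in cycling and 1114 CPM (991 to 1248) in the other cells. Bst2 was at 915 against 1699 CPM, Cd7, a surface glycoprotein of early lymphoid cells, at 502 against 878 CPM, and Spib at 185 against 368 CPM. Ly6d, Cox6a2 and Runx2 went the other way, at 2132 (1997 to 2273) against 1354 CPM (1218 to 1501), at 566 (498 to 641) against 413 CPM (339 to 497), and at 262 (217 to 315) against 105 CPM (69.8 to 152). Tcf4 was at 1096 against 1440.2 CPM, and Ighm at 840.0 against 825 CPM, with overlapping intervals for Ighm. Siglech was at 760.1 against 1331 CPM, but its limit of 5 UMIs is a larger share of a shallow cell. These intervals do not hold the variation between cells, and the part of depth was not tested. The cycling cells also held all 3 haemoglobin-rich cells, the 3 cells with the most neutrophil UMIs and the cell marked as a doublet, and their part was not tested either.

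**Figure D5:**
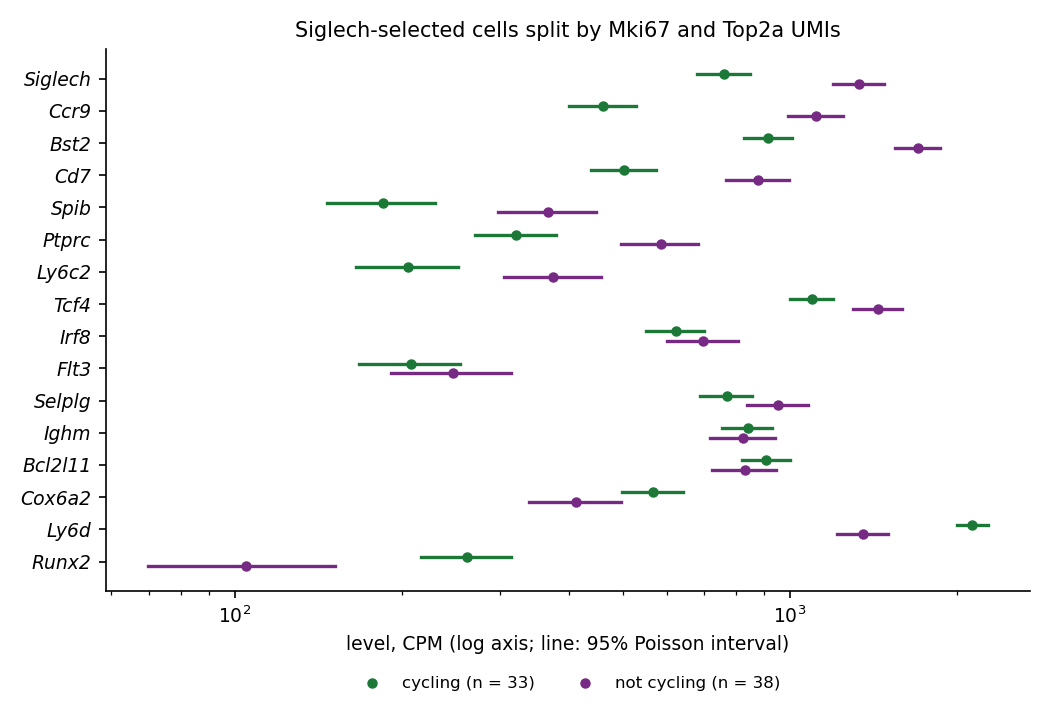
Level in CPM on a log axis of 16 genes in the 33 cycling (green) and 38 other (purple) pDC-like cells, with 95% Poisson intervals as lines. Ccr9, Bst2, Cd7 and Spib are lower, and Ly6d, Cox6a2 and Runx2 higher, in the cycling cells, while the intervals of Irf8, Flt3 and Ighm overlap.

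By Siglech count, 42 cells had 5 to 9 UMIs, 27 had 10 to 19 and 2 had 20 or more, and at least 2 of the other 3 markers were found in 81.0%, 92.6% and 100% of them. Ccr9 was at 547 CPM in the 42 cells and 1005 CPM in the 27, Bst2 at 1101 and 1373 CPM, Tcf4 at 1205 and 1299 CPM, and Irf8 at 615 and 677 CPM. Each of these levels was higher in the 27 cells, while the 2 cells with 20 or more had 388 CPM of Ccr9 and 819 CPM of Tcf4, below both, and 1465 CPM of Bst2 and 1034 CPM of Irf8, above both. Below the threshold, the 31 cells with 1 to 4 Siglech UMIs were at 260.4 CPM of Ccr9, 660 CPM of Bst2 and 750.1 CPM of Tcf4.

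Against all other kept cells, most of which are chondrocytes, osteoblasts, neutrophils and other marrow cells, 10.2% of 9113 genes were higher and 13.7% lower, and since the selection used this contrast nothing is read from these counts. Among the 20 leading genes were Siglech, Ly6d, Ccr9, Cd7, Cox6a2, Selplg, Bst2, Gpr171, Flt3, Rnase6, St8sia4, Sla2, Irf8, Spib, Atp1b1, Cd69, Upb1, Mpeg1 and Gcnt2. Cd7 was at 644 CPM against 2.90 CPM, Gpr171, an orphan-family receptor, at 386 CPM against 8.65 CPM, and the sialyltransferase gene St8sia4 at 600.2 CPM against 27.6 CPM. Cd69, an early activation marker, was uneven, with a UMI in 41 of 71 cells, up to 61 in a cell, and 65.6% of its UMIs in 10 cells. The 10 lowest were Camp, Ngp, Col2a1, 3110079O15Rik, Mia, Ucma, Ibsp, Ltf, Bglap and Elane.

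The leading genes also differed by partner. Against B lineage cells they were Siglech, Ccr9, Cd7, Bst2, Cox6a2, Mpeg1, Gcnt2, Tyrobp, Ctsh and Ncf1, several of them known from myeloid cells. The pore-forming Mpeg1 was at 491 CPM against 9.85 CPM, and Ncf1, of the phagocyte oxidase, at 512 CPM against 19.7 CPM. The lowest were Vpreb1, Cd79a, Vpreb3, Igll1, Ebf1, Pou2af1, Bfsp2, Pax5, Chchd10 and Lef1. Against monocytes the leading genes were Ly6d, Siglech, Ccr9, Cox6a2, Atp1b1, Mzb1, Blnk, Cd7, Spib and Cd69. The lowest were Lyz2, Cxcl2, Il1b, Clec4e, Thbs1, Il6, F10, Slc7a11, Elane and Cd14, with Il1b, the inflammatory cytokine, at 29.8 CPM against 3077 CPM and Il6 at 0 against 383 CPM.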

How the data were processed

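Values come from the P6 library alone, and P56 was not analysed here. The authors deposited UMI counts per gene and cell for 14181 barcodes and 31053 genes, without normalization, made with Cell Ranger 3.1.0 on mm10 with the reporter sequences added, and analysed with Seurat 3 in their study. Their annotation release was not given in the sources used here. A second deposited count matrix of exogenous sequences was joined by barcode. No per-sample column was left unmapped (0). Of the gene identifiers, 30934 matched GENCODE M21.

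Of 8705 barcodes with at least 1600 genes, 449 exceeded 10% mitochondrial UMIs and 8256 were kept. Counts were summed per class with Python 3.11.15, numpy 2.4.6, scipy 1.17.1, pandas 2.3.3 and scanpy 1.11.5, and plotted with matplotlib 3.10.9. Genes with at least 10 CPM in either class were compared, and a list's median log2 ratio is over every listed gene in the file. Intervals are exact at 95%, also for shares of 0 cells, and the limit for a gene with 0 UMIs is 3 UMIs. Scrublet, set to expect 10% doublets, marked cells, which were kept. For thinning to 5000 UMIs, 9 pDC-like cells, 107 B lineage cells and 3 monocytes were too shallow. The counting step was tested on simulated data.

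The selection, the gene lists and the named genes were chosen with earlier results of these data known. The text names the 4 markers, genes of 32 lists (each with its count and examples), and the 20 largest and 10 smallest ratios against all other kept cells and 10 and 10 against each class, among genes with at least 50 CPM. Some genes are not reported here and were left out of the lists. Of the lists, Mx2 and Ifi30 were not found in the file by symbol. Of 11 genes looked up, 7 had a RefSeq window. Near-identical copies (the Ifna, Hba and Bcl2a1 genes) can lose or share reads. Alternatives changed the limits on genes, mitochondrial UMIs, Siglech and Cd79a, the doublets, the required markers, the averaging, the added CPM and the low-value filter.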

Additional observations from a re-analysis of the deposited data

How the results depend on the processing

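Of 138 values, 26 shares of cells were recomputed under 14 alternative settings and the others under 13, without thinning. Direction was checked only for the 42 log2 ratios past 1 in size. None of these changed direction, and 37 of the 42 stayed past 1 under those 13. The 5 others were Bcl2l11 and Ifnar2 against monocytes and Mki67, Spib and Tlr7 against B lineage cells, whose smallest sizes were 0.64, 0.89, -0.92, 0.82 and 0.44. With 1 CPM added, genes higher and lower than in B lineage cells numbered 1124 and 979 (742 and 471 with 10 CPM), those higher than in monocytes 1506 (807), and those higher than in all other kept cells 1611 (929). With 50 CPM added, the counts were 248 and 107 against B lineage cells, 180 and 247 against monocytes (624 lower with 10 CPM) and 280 and 364 against all other kept cells (1251 lower). Requiring 50 CPM in either class gave 455 and 258, 439 and 382, and 554 lower than in all other kept cells. At least 10 Siglech UMIs left 0.351% of kept cells, of which 93.1% had at least 2 of the other markers, with 836 genes lower than in B lineage cells. At most 5% mitochondrial UMIs left 0.288%, of which 71.4% had 2 of the markers, with 1025 genes lower. Requiring 2 of the markers makes that share 100%. Leaving out cells with 3 or more UMIs of B cell-defining genes or 500 haemoglobin UMIs per 10000, an alternative chosen after seeing the data, moved 11 of 138 values and no count of genes by over 1.5 times. Many values moved beyond their counting interval (counts of genes, by over 1.5 times) under other settings, 76 of 138 at most 5% mitochondrial UMIs, 55 at 10 Siglech UMIs, 50 with 50 CPM added, 45 with the mean over cells, 33 with 1 CPM added, 32 with 2 of the markers required and 12 of 26 shares after thinning. The remaining 6 settings moved at most 13 each. Against conventional dendritic-like cells no ratio was taken, since 16 cells are under the 20 required. No paired analysis was possible because there was 1 library. With 704749 UMIs in 71 cells, a gene below 4.26 CPM could go unseen. Genes of 1 to 3 UMIs are mostly given as counts of cells, while Gata2 is given as the sum of its list.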

Other observations

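Of the 10 pDC-like cells with 0 or 1 of Ccr9, Ly6d and Cox6a2, 1 had no such marker and 2288 haemoglobin UMIs per 10000, and another had none and 14 neutrophil UMIs. A further cell of the 10 had 1 marker and 1278 haemoglobin UMIs per 10000. The haemoglobin-rich cell at 636 per 10000 had all 3 markers. The 3 cells with the most neutrophil UMIs carried 2 or 3 of the markers.

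The mitochondrial share of the pDC-like cells was 5.83% at the median, against 5.26% in B lineage cells and 4.17% in monocytes.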
